A study of Mus musculus with 6 samples.

Results

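The 5 microRNA probes described here, mmu-miR-709, mmu-miR-690, mmu-miR-5126, mmu-miR-711 and mmu-miR-1187, were read on arrays of bone marrow-derived progenitor cells from diabetic and control mice. The 5 were taken by name, as 10 spots per array, from the 1900 mouse miRNA probes. They were chosen from results of these same arrays: miR-709, miR-690 and miR-5126 for their high signal, and miR-711 and miR-1187 among probes that read higher in db/db cells. Brightness is therefore given below as a description, and so are the group values of miR-711 and miR-1187. The 5 probes were named as bright, mouse-only miRNAs. The first word fits miR-709, miR-690 and miR-5126 on every array, while miR-711 ranked between 66 and 173 of 1900. The second was not checked here, since the arrays carried only mouse probes, and a miR-711 is also annotated in human.

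Cells came from adult male db/db mice, homozygous for the diabetes mutation that disables the leptin receptor and so causes obesity and type 2 diabetes, and from adult male db/+ littermates, which carry 1 mutant copy. The labels give a Jackson lab stock and no age in weeks. In both groups mononuclear cells of the marrow spent 4 days in an endothelial medium (EGM-2), and those that had attached were cultured for 3 days more. There were 3 arrays per group, each hybridised with 1 Cy5-labelled sample made from 1 µg of total RNA, and no other treatment is given. Whether every sample is a separate animal is not stated in the labels, so each p-value reflects only the spread among these samples, which may be technical.

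A miRNA guides Argonaute proteins to messenger RNAs that pair with its seed, bases 2 to 8 from its 5′ end, and so lowers their translation and stability. In mouse, miR-709 is known as a miRNA found largely in the nucleus, where it was reported to bind the primary transcript of miR-15a and miR-16-1 and hold back its processing. MiR-690 is known from mouse macrophages, whose vesicles were reported to carry it to insulin-responsive cells. The sequence of miR-1187 is built of alternating U and G, like many 5p arms of the miR-466 and miR-669 miRNAs, and that of miR-709 closely resembles a stretch of the B1 repeat, an abundant mouse short interspersed element. No role is given here for miR-5126 and miR-711.

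The target sequences that the array files list for the 5 probes are shown because the probes share little apart from their signal. Capitals mark the seed.
miR-709: gGAGGCAGaggcaggagga
miR-690: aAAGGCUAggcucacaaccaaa
miR-5126: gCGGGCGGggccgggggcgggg
miR-711: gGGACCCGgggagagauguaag
miR-1187: uAUGUGUGuguguauguguguaa

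No 2 of them share a seed. RefSeq's mature miRNAs (GRCm38.p6) held 4 of the 5 names, each with the same sequence. They place miR-690 at chr16:28599940-28599961 on the minus strand, inside the span of Fgf12. MiR-5126 lies at chr1:84695890-84695911 on the plus strand, inside the span of Dner. MiR-711 lies at chr9:108969970-108969991 on the plus strand, inside the span of Col7a1, the gene of a collagen. MiR-1187 lies at chr5:82798964-82798986 on the minus strand and overlaps no other gene of the table. The table gives gene spans without exons, so exonic and intronic positions are not stated. Position was not given for miR-709.

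The sequences differ in composition. MiR-5126 held only G and C, with 77.3% G, and 99.9% of all probes had a lower G share. MiR-709 had 57.9% G and no U, and miR-711 had 50% G. By contrast miR-690 had 18.2% G and 45.5% A, and miR-1187 had 47.8% U. A G share of at least 50% was found in 139 of 1900 probes, or 7.32%, among them 3 of the 5. Those 139 probes had a median scanner signal of 162 against 66.3 for the rest, and 92.1% of them were read above the blank spots often enough to be tested against 59.8% of the rest. Across the 1900 probes Spearman's rho of G share with mean log2 intensity was 0.22, a description across probes that share the same 6 arrays. The brightest of the other G-rich probes were miR-762 and miR-2137, with scanner signals of 6214 to 16800 and of 6453 to 17358. The 50 brightest probes had a median G share of 29.6%, close to the 27.3% of all probes, so high signal was not confined to G-rich targets.

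As for the arrays, the median blank spot read between 39.1 and 97.2 and the median miRNA probe between 49.5 and 104.4, so most probes were dim. Markers of the cell types that such cultures can hold were read as follows. All 5 stromal probes and 5 of 7 myeloid and macrophage probes exceeded the blanks on all 6 arrays, with miR-223-3p at 96.1 to 282 times the median blank. The endothelial miR-126a-3p stood at 15.6 to 35.7 times the blank and miR-126a-5p was above the blanks on 1 array. None of the 4 epithelial and none of the 3 liver, muscle and neuron probes was above them on all arrays. The summed stromal signal was 7782 to 26659 in db/+ and 8105 to 16322 in db/db cells, and the summed myeloid signal 10356 to 43914 and 18916 to 41365. Most of the sum of the probes listed as myeloid came from miR-223-3p and miR-21a-5p, which went opposite ways. The median scanner signal was 9341 in db/+ and 13039 in db/db for miR-223-3p, and 24682 and 9429 for miR-21a-5p. How specific miR-21a-5p is to myeloid cells was not tested, so the sum is no measure of those cells alone. The other 5 myeloid probes had lower medians in db/db, as did all 5 stromal probes. So did the 4 epithelial and the 3 liver, muscle and neuron probes, which were not above the blanks on all arrays. Both endothelial probes had lower medians in db/db too. MiR-126a-3p had 1835 in db/+ and 1137 in db/db, and miR-126a-5p, above the blanks on 1 array, had 56.9 and 44.7. Both haematopoietic probes were above the blanks on all arrays, with medians of 153 in db/+ and 333 in db/db for miR-142a-3p and of 659 and 1039 for miR-142a-5p. The erythroid miR-451a was above them on 6 arrays, with medians of 1009 and 500.2, miR-144-3p on 1 array and the lymphoid miR-150-5p on 3. These medians are of unscaled signal and were not tested. The spike controls described below were bright on db/+ replicates 1 and 2 and on db/db replicate 2, so more db/+ than db/db arrays were bright. How far this lowers the db/db medians was not tested, so no loss of stromal, myeloid or endothelial signal is read from them. The array does not tell fewer cells of a type from less miRNA per cell, and the part of cell makeup in the values below was not tested.

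The arrays also differed in overall brightness. Arrays split at the largest gap in the signal of the spike controls PUC2PM-20B and a3-PUC2PM-20B, a split chosen after their values were seen. A bright set of db/+ replicates 1 and 2 and db/db replicate 2 read 27381 to 42333 for these spikes, and a dim set of db/+ replicate 3 and db/db replicates 1 and 3 read 9652 to 15288. Each set holds 1 array of one group and 2 of the other, so values within a set rest on an arm of 1 array.

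**Figure D1:**
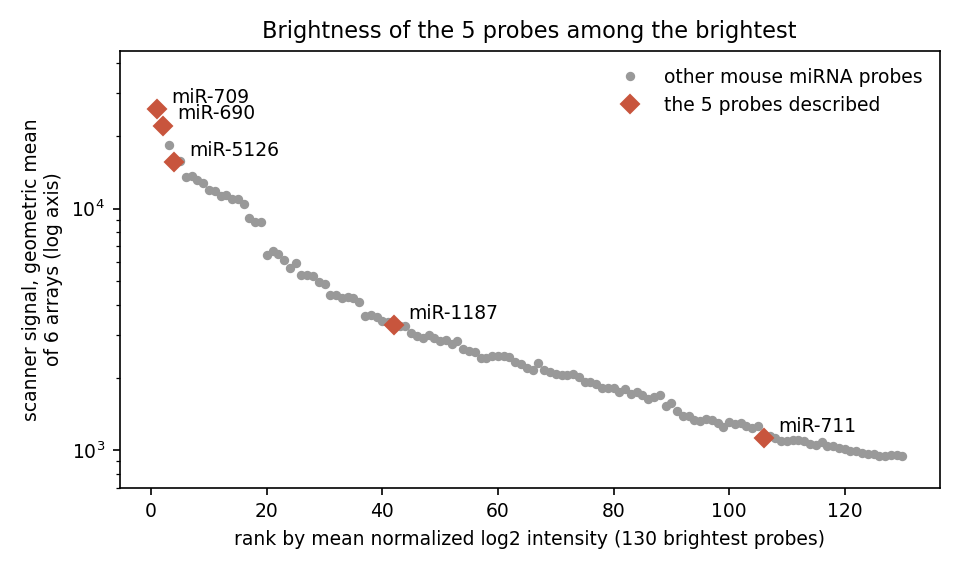
Scanner signal (geometric mean of the 6 arrays, log axis) against the rank by mean normalized log2 intensity for the 130 brightest of 1900 mouse miRNA probes. The described probes are marked; miR-709, miR-690 and miR-5126 hold ranks 1, 2 and 4, miR-1187 rank 42 and miR-711 rank 106.

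MiR-709 was the brightest miRNA probe on 4 of 6 arrays. Its scanner signal, the mean of 2 spots, was 42991, 36023 and 18213 for db/+ replicates 1 to 3 against 18454, 36847 and 15318 for db/db replicates 1 to 3. The highest spot of any of the 5 probes read 45269, below the 16-bit ceiling of 65535. The high arrays were those of the bright spike set, at 36023 to 42991, and the low ones those of the dim set, at 15318 to 18454, so that the groups overlapped. On db/db replicate 1 it held rank 4, behind the array's brightest probe miR-341-5p, and on db/db replicate 3 rank 3, behind miR-6239. Its share of the summed signal of all 1900 probes was 4.05% ± 0.38 (SD, n = 3) for db/+ against 3.08% ± 1.00 (SD, n = 3) for db/db, where an even share would be 0.0526%. A probe's signal depends on how it binds as well as on how much RNA is present, so ranks and shares describe signal and are no census of molecules.

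MiR-690 varied least on the scanner. It read 30260, 23920 and 16794 in db/+ against 20063, 21555 and 22018 in db/db cells. The db/db values all lay inside the range of the db/+ values. Its highest array was 1.80 times its lowest, against 2.81 times for miR-709 and 2.58 times for miR-5126. The share was 3.13% ± 0.87 (SD, n = 3) for db/+ against 2.91% ± 0.49 (SD, n = 3) for db/db.

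The probe for miR-5126 read 23598, 20613 and 9147 in db/+ against 13254, 21287 and 11508 in db/db cells. Like miR-709 it was high on the bright set, at 20613 to 23598, and low on the dim set, at 9147 to 13254. It held ranks between 4 and 8, and its share was 2.18% ± 0.09 (SD, n = 3) for db/+ against 2.05% ± 0.42 (SD, n = 3) for db/db. The nearest probes on either side of it in mean normalized log2 intensity were miR-6239 at 14.22 and miR-29a-3p at 13.98, against 13.99 for miR-5126.

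MiR-711 was much dimmer. It read 946, 1202 and 405 in db/+ against 1493, 1272 and 2261 in db/db cells. Every db/db array lay above every db/+ array already in the raw signal, although the lowest db/db value, 1272, was close to the highest db/+ value, 1202. How many of all probes separate in the raw signal was not computed, so nothing is read from that separation. The readings of miR-711 are 9.73 to 33.9 times the median blank. The share was 0.10% ± 0.02 (SD, n = 3) for db/+ against 0.23% ± 0.09 (SD, n = 3) for db/db.

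MiR-1187 read 4859, 3573 and 1416 in db/+ against 2714, 5317 and 3596 in db/db cells. The groups overlapped in the raw signal, where the highest array was 3.76 times the lowest. As a share of the summed signal it held 0.428%, 0.385% and 0.348% in db/+ against 0.453%, 0.589% and 0.491% in db/db cells, with no overlap. How many of all probes separate by share was not computed, so nothing is read from that separation. Together the 5 probes made up 9.85% ± 1.27 (SD, n = 3) of the summed signal for db/+ against 8.79% ± 1.15 (SD, n = 3) for db/db, with arrays from 9.05% to 11.3% and from 7.47% to 9.56%. After the median blank was subtracted the means were 11.6% and 10.1%. Nearly all of it came from miR-709, miR-690 and miR-5126, at 6.67% to 10.9% per array.

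**Figure D2:**
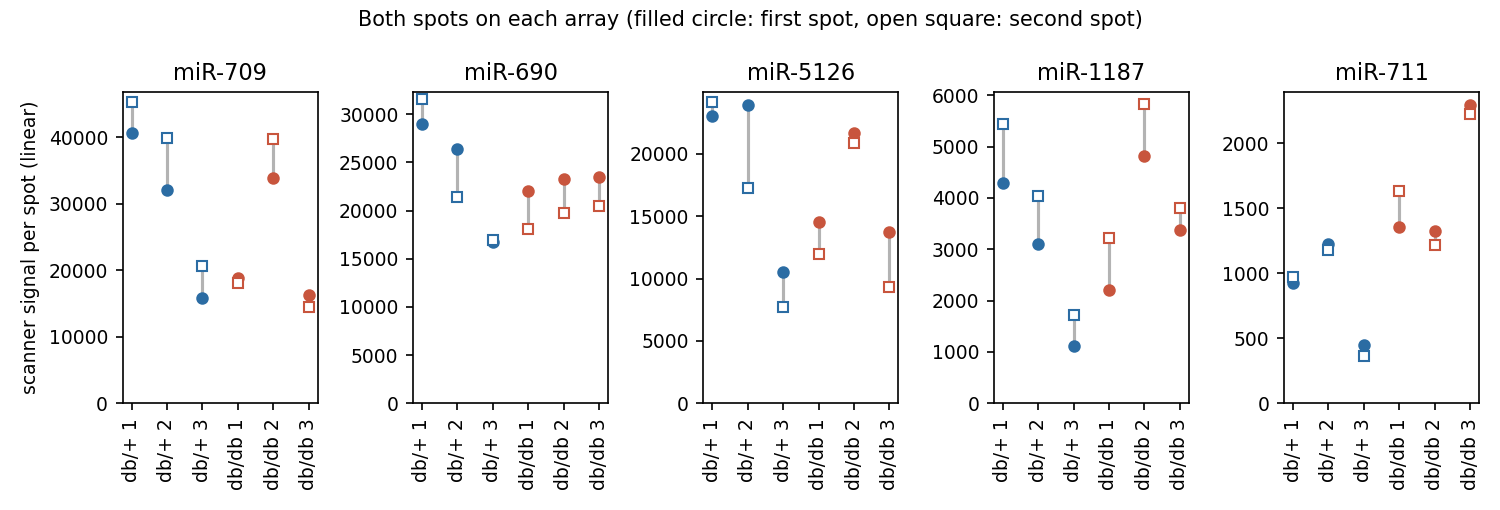
Scanner signal of each spot (linear axis) on the 6 arrays, db/+ in blue and db/db in red; filled circles are the first spot of a probe and open squares the second, joined by a line. MiR-709 is high on db/+ replicates 1 and 2 and db/db replicate 2, and the second spot of miR-1187 is the brighter one on all 6 arrays.

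Each probe was printed as 2 spots, and these did not always read alike. The second spot of miR-1187 was brighter on 6 of 6 arrays, by 12% to 42% of the mean. For miR-5126 the second spot minus the first was -38.6% to 4.73% of the mean, and the first spot was brighter on 5 of 6 arrays. The spots of miR-709 differed by -11.8% to 27.1% and those of miR-690 by -20.6% to 8.67%, with either spot the brighter one. All values above and below are means of both spots.

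The main comparison was db/db against db/+ after normexp background correction and quantile normalization, in a limma fit over the 1181 probes read above the blanks on at least 3 arrays. All 5 probes were above the blanks on all 6 arrays. No probe of 1181 passed at a Benjamini-Hochberg adjusted p under 0.05, so 0 of the 5 did, against a background of 0% called. Before adjustment 59 probes, 5% of those tested, had a limma p under 0.05, and they included 2 of the 5, miR-711 and miR-1187. Those 2 were listed for higher db/db readings on these same arrays, so nothing is read from their number. Log2 differences are db/db minus db/+.

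MiR-709 measured a normalized log2 intensity of 14.85 ± 0.07 (SD, n = 3) for db/+ against 14.46 ± 0.37 (SD, n = 3) for db/db. The limma log2 difference was -0.38 ± 0.20 (SE), a 95% interval of -0.85 to 0.08 and an adjusted p of 0.89. Single arrays read 14.89, 14.89 and 14.76 in db/+ and 14.25, 14.89 and 14.26 in db/db cells. The 3 arrays at 14.89 are those on which miR-709 outranked all other probes, both spots included, since quantile normalization gives a rank the same value on every array. They are also the bright spike set, within which the log2 difference was therefore 0, while within the dim set it was -0.51. With the spike split as a block it was -0.26, and without db/db replicate 2 it was -0.61, with adjusted p of 0.73 and 0.29. Scaling to the 75th percentile, which does not tie ranks, gave -0.48. The part of the spike split in the difference was not tested.

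In the authors' value table the groups of miR-709 separated. Its values were 28120, 29996 and 30048 in db/+ against 23418, 27458 and 17737 in db/db cells, so that each db/db array was below each db/+ array. By those values 56 of 1181 probes, or 4.74%, were lower on every db/db array in this way. The limma log2 difference on the table was -0.38 with an adjusted p of 0.87, so the separation did not pass.

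MiR-690 and miR-5126 showed no difference past the spread. MiR-690 measured 14.56 ± 0.18 (SD, n = 3) for db/+ against 14.39 ± 0.29 (SD, n = 3) for db/db. Its limma log2 difference was -0.16 ± 0.19 (SE), a 95% interval of -0.60 to 0.27 and an adjusted p of 0.91. It was 0.0047 without db/db replicate 2 and -0.42 within the bright spike set. MiR-5126 measured 14.06 ± 0.10 (SD, n = 3) for db/+ against 13.92 ± 0.17 (SD, n = 3) for db/db. Its limma log2 difference was -0.14 ± 0.14 (SE), a 95% interval of -0.47 to 0.19 and an adjusted p of 0.91. As ratios of db/db to db/+ the intervals run from 0.66 to 1.21 for miR-690 and from 0.72 to 1.14 for miR-5126.

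MiR-711 had the largest log2 difference of the 5, without passing the test. Normalized log2 intensities were 9.35, 9.91 and 9.98 in db/+ against 11.25, 10.17 and 11.18 in db/db cells. All 3 db/db arrays lay above the db/+ arrays, as did those of miR-1187, so 2 of the 5 separated this way where 4.06% of all tested probes did. None of the 5 lay below the db/+ arrays throughout, as 5.59% of tested probes did, and 9.65% separated in either direction. Because both were listed with this known, nothing is read from that count. The log2 difference was 1.12 ± 0.32 (SE), a ratio of 2.18. It was 1.17 in the authors' value table. Db/db replicate 2, the only db/db array of the bright spike set, was the lowest of its group, and the difference was 1.45 without it. Within the bright set the difference was 0.54 and within the dim set 1.24, and with the split as a block 0.89. The limma adjusted p was 0.89 in the main fit.

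MiR-1187 had the smallest spread of the 5 once normalized. It measured 11.61, 11.59 and 11.67 in db/+ against 11.99, 12.06 and 11.94 in db/db cells. The SD pooled over the groups was 0.052, and 1.27% of tested probes had a lower one. The median over all tested probes was 0.22 on this scale. The log2 difference was 0.38 ± 0.11 (SE), a ratio of 1.30, and limma's adjusted p was 0.89. The limma standard error draws in the spread of all tested probes and is larger than this pooled SD. The pooled SD depended on the scale: it was 0.078 in the authors' table, 0.36 with 75th percentile scaling and 0.74 with no normalization. It was not computed for cyclic loess, where the limma standard error was 0.12. The log2 difference was 0.35 with 75th percentile scaling, 0.37 with no normalization and 0.41 in the value table, and within the bright and dim spike sets it was 0.46 and 0.30.

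**Figure D3:**
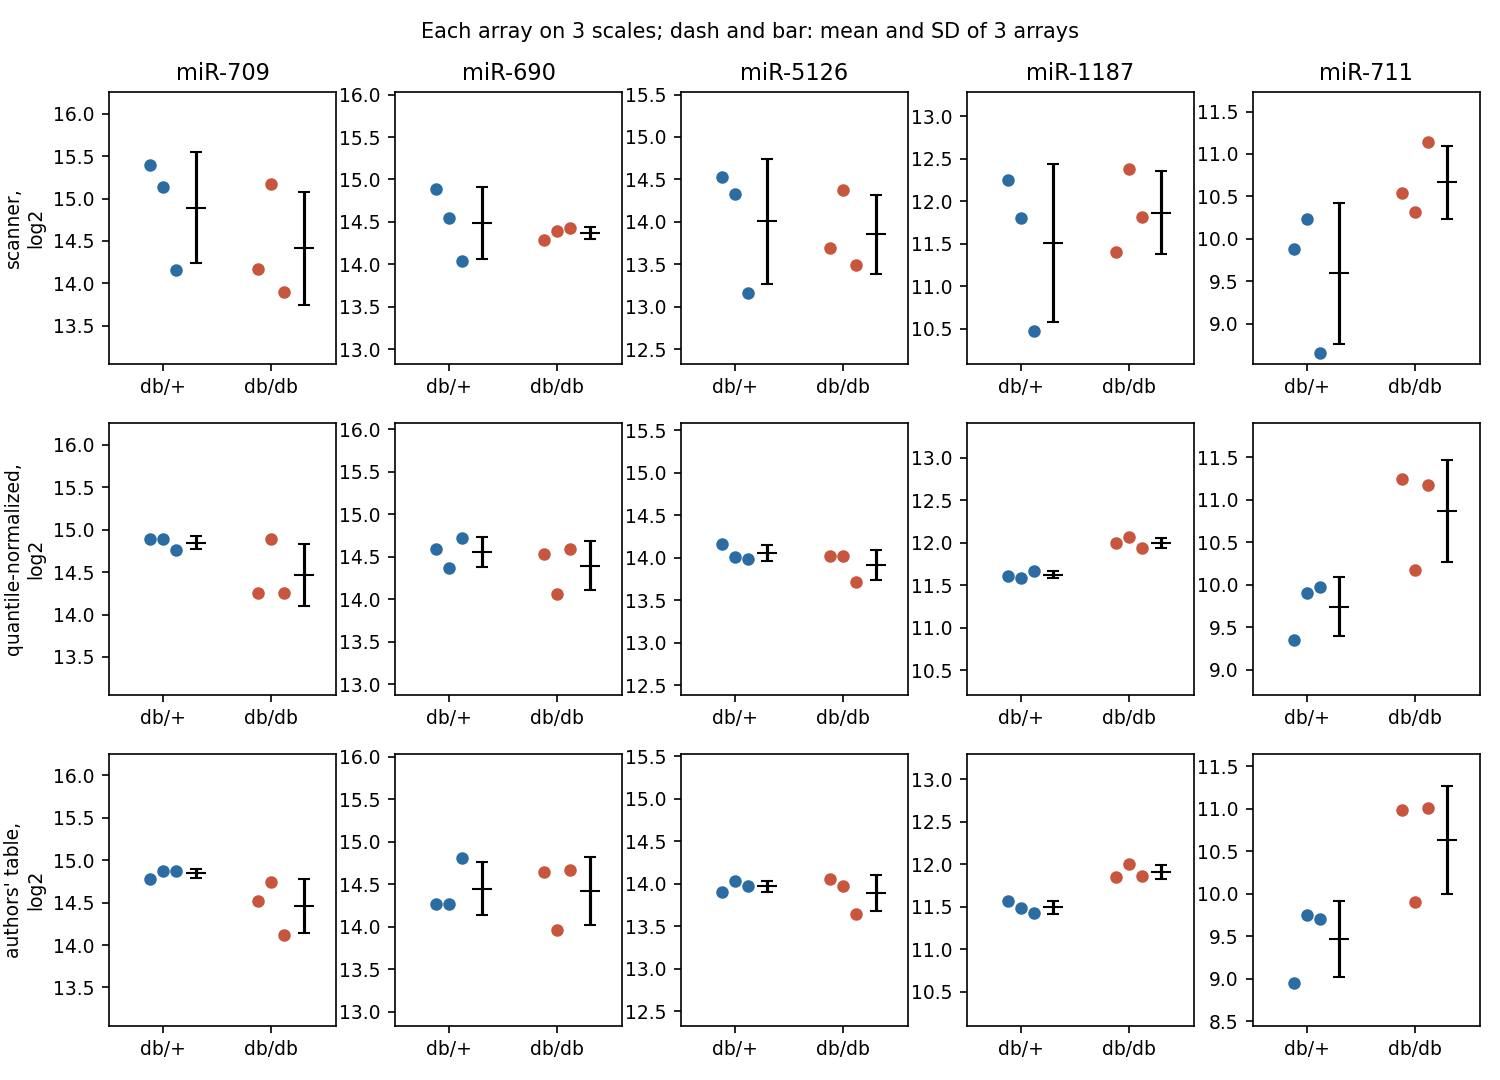
Log2 signal on the scanner, after quantile normalization and in the authors' table, 1 column per probe; points are arrays, the dash and bar are the mean and SD of 3 arrays, and each panel spans 3.2 log2 units. The spread of miR-1187 is 0.74 without normalization, 0.052 after quantile normalization and 0.078 in the authors' table. All db/db arrays of miR-711 lie above its db/+ arrays on every scale, and those of miR-1187 after quantile normalization and in the table. Of all tested probes 4.06% do so after quantile normalization and 4.23% in the table, and the share on the scanner was not computed. Both were listed for higher db/db readings, so nothing is read from this.

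Spread between arrays therefore ranked the 5 probes differently on each scale. After quantile normalization the pooled SD was 0.27 for miR-709, 0.24 for miR-690, 0.14 for miR-5126 and 0.49 for miR-711. With 75th percentile scaling miR-690 had the lowest, at 0.14, below which 6.18% of tested probes lay, and miR-709 had 0.45. In the authors' table miR-709 had 0.23, miR-690 0.36, miR-5126 0.16 and miR-711 0.55. The median over all tested probes was 0.57 on that scale, 0.28 with 75th percentile scaling and 0.41 with no normalization. In the authors' values 4.91% of tested probes had a lower SD than miR-709 and 18.5% than miR-690. The shares were 1.27% for miR-5126, 46.7% for miR-711 and 0.169% for miR-1187. Among the 106 probes at least as bright as miR-711 the median SD after quantile normalization was 0.35.

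For miR-709, miR-690 and miR-5126 the authors' table was close to the scanner signal times 1 factor per array. On db/+ replicate 1 the table value over the scanner value was 0.654 for miR-709, 0.654 for miR-690 and 0.647 for miR-5126. On db/+ replicate 3, the array with the lowest summed signal, the same ratios were 1.65, 1.71 and 1.76. On db/db replicate 3 they were 1.16, 1.18 and 1.11. The dimmer miR-711 departed from this, with 0.521 on db/+ replicate 1 and 0.912 on db/db replicate 3, and so did miR-1187 on db/+ replicate 3, with 1.94. Set against the 50 probes nearest in brightness, the factor lay within their range on 6 of 6 arrays for miR-711 and miR-5126, on 5 for miR-1187, on 4 for miR-709 and on 3 for miR-690. The same 50 probes served for miR-709, miR-690 and miR-5126, and all were dimmer than miR-709 and miR-690. Those 2 could therefore not be set against other probes as bright, and nothing is read from their lower counts. The order of the arrays changed between scanner and table: miR-709 was second lowest on db/+ replicate 3 by scanner and highest there in the table. Both are made from the same arrays and are no independent measurements. Log2 differences from the table and from the main scale were -0.38 and -0.38 for miR-709, -0.03 and -0.16 for miR-690, -0.08 and -0.14 for miR-5126, 1.17 and 1.12 for miR-711, and 0.41 and 0.38 for miR-1187.

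Because miR-709 and miR-690 had nearly the same factor on each array, their ratio within an array was close on the scanner and in the authors' table. Quantile normalization, which sets values by rank, changed it: on db/+ replicate 1 the normalized log2 intensities were 14.89 and 14.59, and on db/db replicate 3 they were 14.26 and 14.59. The scanner ratio of miR-709 to miR-690 was 1.42, 1.51 and 1.08 in db/+ against 0.92, 1.71 and 0.70 in db/db cells. The groups overlapped, while the spike sets did not, with 1.42 to 1.71 in the bright set and 0.70 to 1.08 in the dim set. In the authors' table the ratio ran from 1.42 to 1.72 in the bright set and from 0.68 to 1.05 in the dim set. A ratio within an array shows unequal change and not which of the probes changed. In the table miR-690 was 15972 to 19784 in the bright set and 25525 to 28635 in the dim set. The spike split itself was chosen after its values were seen, and the cause of the pattern was not tested.

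**Figure D4:**
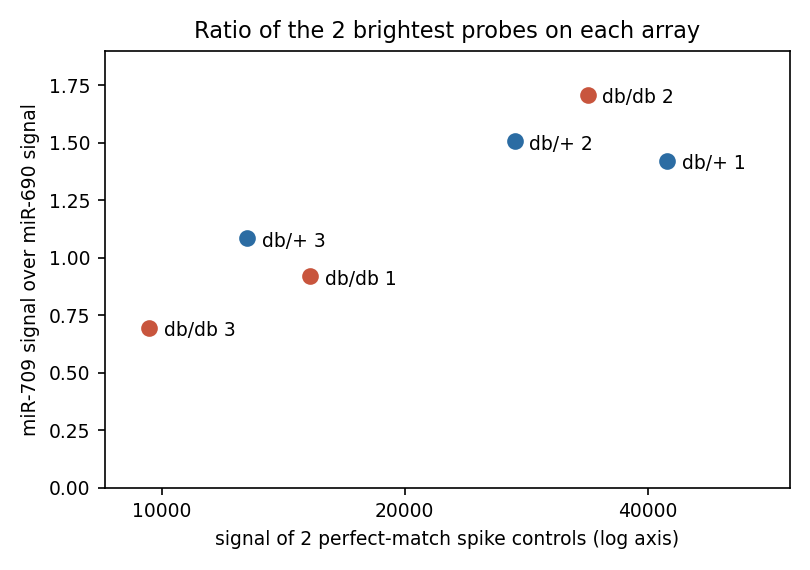
Ratio of the miR-709 to the miR-690 scanner signal on each array against the signal of the spike controls PUC2PM-20B and a3-PUC2PM-20B (log axis), db/+ in blue and db/db in red. The 3 arrays with bright spikes have ratios of 1.42 to 1.71 and the 3 with dim spikes 0.70 to 1.08, with both groups in each set.

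MiR-15a and miR-16 probes were read because of the reported action of miR-709 on the primary transcript of miR-15a and miR-16-1, which lies on chromosome 14. MiR-16-2-3p comes from another transcript, on chromosome 3, and miR-16-5p is made from both. Of the 5 probes, all tested, 0 passed, 2 had a log2 difference above 0 and 3 below, where 540 of all 1181 were above 0. MiR-15a-5p measured 10.60 ± 0.67 (SD, n = 3) for db/+ against 11.20 ± 0.59 (SD, n = 3) for db/db. MiR-16-5p, one of the brighter probes at 6533 to 13486 on the scanner, had a log2 difference of -0.08. The passenger arms miR-15a-3p, miR-16-1-3p and miR-16-2-3p had -0.08, 0.02 and -0.48.

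Shared sequence with other probes was searched to see which other targets resemble the 5. No other probe shares a seed with miR-709, miR-690, miR-5126 or miR-711, and 3 share that of miR-1187. These 3 are shown with the seed in capitals because they read higher in db/db cells on average, as miR-1187 did.
miR-466a-5p: uAUGUGUGuguacauguacaua
miR-466e-5p: gAUGUGUGuguacauguacaua
miR-466p-5p: uAUGUGUGuguacauguacau

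Their log2 differences were 0.85, 0.68 and 0.66, with standard errors of 0.47, 0.41 and 0.44, and none passed. They were far dimmer than miR-1187, at 54.9 to 521 on the scanner against 1416 to 5317. Runs of at least 10 identical bases in a row, a search added after the sequences were seen, linked 13 probes to miR-1187 on the same strand. All 13 were tested, and each lay above 0 in its log2 difference. Their median was 0.47 where that of all tested probes was -0.02, and 540 of 1181 lay above 0. The 3 brightest of the 13 had smaller values: miR-466i-5p, which is UG throughout, had 0.01 ± 0.15 (SE), miR-574-5p had 0.25 and miR-3082-5p 0.25. The dimmest of the 13, miR-466k, at 48.6 to 90.8 on the scanner, also had a smaller value, 0.24. Another 23 probes match the opposite strand of miR-1187, so that their targets could pair with it. Of these 15 were above 0 and 8 below, with a median of 0.03. The longest such match, 16 bases, was to miR-466f-3p, which had a log2 difference of 0.12 ± 0.22. (SE) The matching bases are in capitals.
miR-1187: UAUGUGUGUGUGUAUGuguguaa
miR-466f-3p: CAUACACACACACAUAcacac

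These lists overlap families with nearly the same sequences, and their probes are no separate measurements. Alternating UG runs of 8 or more bases were found in 25 probes, or 1.32% of all, miR-1187 among them. Of the other 24, all tested, 22 were above 0 and 2 below, 0 passed, and the median was 0.53. Those with the smallest p were miR-669e-5p, with a log2 difference of 0.91, and miR-466f-5p, with 0.86.

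**Figure D5:**
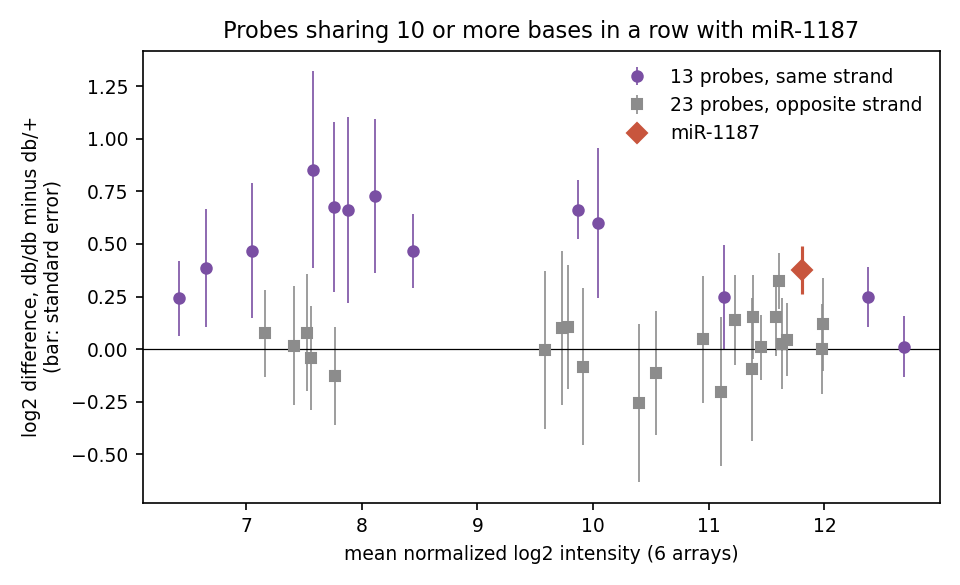
Log2 difference, db/db minus db/+, against mean normalized log2 intensity for miR-1187 and the probes that share at least 10 bases in a row with it on the same strand (13 probes) or the opposite strand (23 probes); bars are limma standard errors. All same-strand probes lie above 0 with a median of 0.47, the opposite-strand probes scatter around a median of 0.03, and no probe passed.

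For miR-709 a stretch of 10 bases, in capitals, is shared with 2 other targets, which are shown because their signals lie far apart.
miR-709: ggaggcagaGGCAGGAGGA
miR-7082-5p: uacgGGCAGGAGGAggggagg
miR-6923-5p: gugagGGCAGGAGGAuuggggugu

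MiR-7082-5p read 1253 to 4638 on the scanner and miR-6923-5p 45.7 to 119, so sharing these bases did not go with 1 level of signal. MiR-711 shares 11 bases with miR-5122, which read 72.4 to 409 and had a log2 difference of -0.11 where miR-711 had 1.12.

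The tested probes whose normalized values followed each of the 5 most closely over the 6 arrays were picked by Pearson's r, as a description without a test, over 6 arrays that share 1 normalization. For miR-709 they were miR-130a-5p and miR-145a-3p, with r of 0.99 and 0.97. Both were dim, with mean normalized log2 intensities of 6.42 and 6.77 in db/+ against 14.85 for miR-709, whose values are tied on 3 arrays. For miR-690 they were miR-8110 and miR-5119, with 0.97 and 0.96. MiR-5126 had miR-2861 and miR-199a-3p, with 0.97 and 0.95. MiR-711 had miR-8108 and miR-7036b-5p, with 0.98 and 0.97. MiR-1187 had the UG-rich miR-466h-5p and miR-466j, with 0.96 and 0.95, whose log2 differences were 0.69 and 0.66. Probes with an r above 0.9 numbered 17 for miR-709, 12 for miR-690, 9 for miR-5126, 19 for miR-711 and 5 for miR-1187.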

How the data were processed

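The scanner files of 6 arrays hold a median spot density, used here as a linear intensity, and list no local background, per the file headers. The authors' deposited table holds a linear intensity per probe, whose background and scaling steps no label, header or note available here describes. Each array had 3968 spots, 168 of them controls. Spots were corrected with normexp (offset 50), quantile-normalized over miRNA spots, averaged as log2 values and compared with lmFit and eBayes in limma 3.58.1 (R 4.3.3). Adjustment ran over 1181 probes above the 95th percentile of the 4 blank spots on at least 3 of 6 arrays. Shares used uncorrected signal. The steps were also run on simulated arrays. Their miRNA spots lacked the bright and dim split of the real arrays, so that run cannot show how the steps handle it. Alternatives covered normalization, background, filter, variance model, array weights, replicate block and each array left out, and value-table values had 1 added before log2. Besides the 5 probes, the rule named the 5 brightest other probes, seed sharers, miR-15a and miR-16 probes, the 2 most alike probes of each, the 2 UG-run probes with the smallest p and the 2 brightest G-rich probes. Probes sharing a sequence run were named after their values were seen. The 5 probes and all lists were chosen with earlier results of these data known.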

Additional observations from a re-analysis of the deposited data

Results flagged for a closer look

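Among 24 control probes in the authors' value table, 1 separated the groups: the spike a3-PUC2MM-20B, which carries a mismatch, lay 0.70 higher in db/db on the log2 scale without overlap. It read 584, 1048 and 952 in db/+ against 1622, 1149 and 1334 in db/db. By the same values 4.23% of 1181 tested miRNA probes lay higher on every db/db array and 4.74% lower, so nothing is read from 1 of 24. Whether the values of this spike bear on the 5 miRNA probes was not tested.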

How the results depend on the processing

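Over 19 alternatives with a test none of the 5 probes passed, with adjusted p from 0.10, for miR-711 without db/db replicate 2, upwards. Log2 differences ranged from 0.54 to 1.45 for miR-711, from 0.30 to 0.46 for miR-1187, from -0.61 to 0 for miR-709, from -0.19 to -0.05 for miR-5126 and from -0.42 to 0.0047 for miR-690, whose sign turned without db/db replicate 2. Leaving out 1 array at a time gave -0.61 to -0.27 for miR-709, -0.28 to 0.0047 for miR-690, -0.19 to -0.048 for miR-5126, 0.90 to 1.45 for miR-711 and 0.34 to 0.41 for miR-1187. Values within the bright spike set that moved by more than the spread were 0 for miR-709, -0.42 for miR-690, 0.54 for miR-711 and 0.46 for miR-1187, and within the dim set 0.30 for miR-1187; fewer arrays and, for miR-709, a tied rank enter there. The count of passing probes was 0 in the main fit and 1 with 75th percentile scaling, 1 with normexp offset 0, 1 over probes detected on all arrays, 2 with an intensity trend in the prior variance, and 0 to 3 with 1 array left out; the cause was not tested. The shared replicate numbers showed no sign of a pairing: deviations of same-numbered arrays correlated at -0.04, -0.0028 and 0.03. Those of differently numbered arrays correlated at -0.367 to 0.366. With 3 arrays per group these values cannot exclude a pairing. With the replicate number as a block in the limma fit 0 probes passed and miR-711 had an adjusted p of 0.93. The joint share of the 5 probes, 9.85% in db/+ and 8.79% in db/db cells, was 11.6% and 10.1% with the median blank subtracted and 11.4% and 10.2% in the value table, and 9.12% to 10.3% and 8.40% to 9.45% with 1 array left out. The dimmest reading of the 5 probes stood at 9.73 times the median blank, and why no probe passed was not tested.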
